A study of Mus musculus with 4 samples.

Results

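The mRNAs of 10 dual-specificity MAP kinase phosphatases were followed in stimulated mouse splenic B cells. The members were the rows of the deposited expression table whose gene symbol equals Dusp1, Dusp2, Dusp4, Dusp5, Dusp6, Dusp7, Dusp8, Dusp10, Dusp14 or Dusp16. Each symbol had 1 locus, which gave 10 of the 23699 entries of the table, and no other entry overlapped any of these loci.

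All cells were B cells from the spleen of C57BL/6 mice, cultured with an antibody against Cd40 for 48 h, with LPS, PMA and ionomycin present over the last 5 h. The B10+ sort took cells positive for Il10 and Cd5 with high Cd1d, and the B10− sort took cells that lacked these 3 proteins. From each of 2 cultures both subsets were sequenced once as ribosome-depleted total RNA, giving 4 libraries. Unstimulated cells were not analysed here, so no induction can be read from these values, and the number of mice behind a culture is not stated in the labels.

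MAP kinases of the Erk, Jnk and p38 families are switched on by phosphorylation of a threonine and a tyrosine in their activation loop. Dual-specificity phosphatases of this family remove both phosphates and so end the signal, and many of their genes are themselves switched on by MAP kinase signalling, which makes a feedback loop. In lymphocytes and macrophages they limit how long antigen receptor and Toll-like receptor signals last. LPS, Cd40 ligation, phorbol ester and calcium ionophore all feed into MAP kinases.

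The deposited values are FPKM, fragments scaled to transcript length and to library size, so levels can be set side by side between genes. Il10, the gene of the sort, measured 1683 FPKM in B10+ versus 9.26 FPKM in B10− cells of culture 1, and 2329 versus 9.62 FPKM in culture 2. The B cell marker Ms4a1 was present in all 4 libraries, at 65.5 to 253 FPKM. Most low values of genes with a single annotated transcript stepped in whole fragments. In the 4 libraries, 77.9% to 79.3% of them lay within 0.15 of a whole number, against 30% expected if spread evenly. These steps place the totals at about 27600000 (B10+) and 24100000 (B10−) fragments in culture 1 and at about 21600000 and 32300000 in culture 2. In bulk RNA, fewer cells that express a gene and less of its RNA per cell cannot be told apart.

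Dusp4 and Dusp2 were the most abundant members in every library, and their highest and lowest libraries differed by only 1.10 and 1.21 times. Dusp4 (MKP-2, a nuclear phosphatase of Erk and Jnk; chromosome 8, 35870664 to 35882948, mm9) measured 178 FPKM in B10+ versus 184 FPKM in B10− cells of culture 1, and 167 versus 176 FPKM in culture 2. Dusp2 (PAC-1, a nuclear phosphatase described in activated lymphocytes; chromosome 2, 127161895 to 127164113) measured 122 versus 122 FPKM in culture 1 and 101 versus 103 FPKM in culture 2. The B10+ and B10− ranges overlapped for both genes. The FPKM of all 10 members summed to 407 in B10+ and 396 in B10− cells of culture 1 and to 370 and 351 in culture 2, and Dusp4 and Dusp2 together made up 72.7% to 79.4% of it.

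The other 8 members spread over a wide range of lower levels. In the order of mean FPKM over the 4 libraries, Dusp4 (176) and Dusp2 (112) were followed by Dusp10 (25.0), Dusp5 (22.2), Dusp16 (15.2), Dusp14 (12.9), Dusp6 (7.91), Dusp1 (4.98), Dusp7 (3.58) and Dusp8 (0.795). The ranges of neighbours in this order were apart at 3 steps, between Dusp4 and Dusp2, between Dusp2 and Dusp10, and between Dusp7 and Dusp8. At the other 6 steps they overlapped, so the order from Dusp10 down to Dusp7 is not fixed by these libraries. Dusp16, for example, was the third most abundant member in B10− cells of culture 2 and the seventh in both libraries of culture 1.

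**Figure D1:**
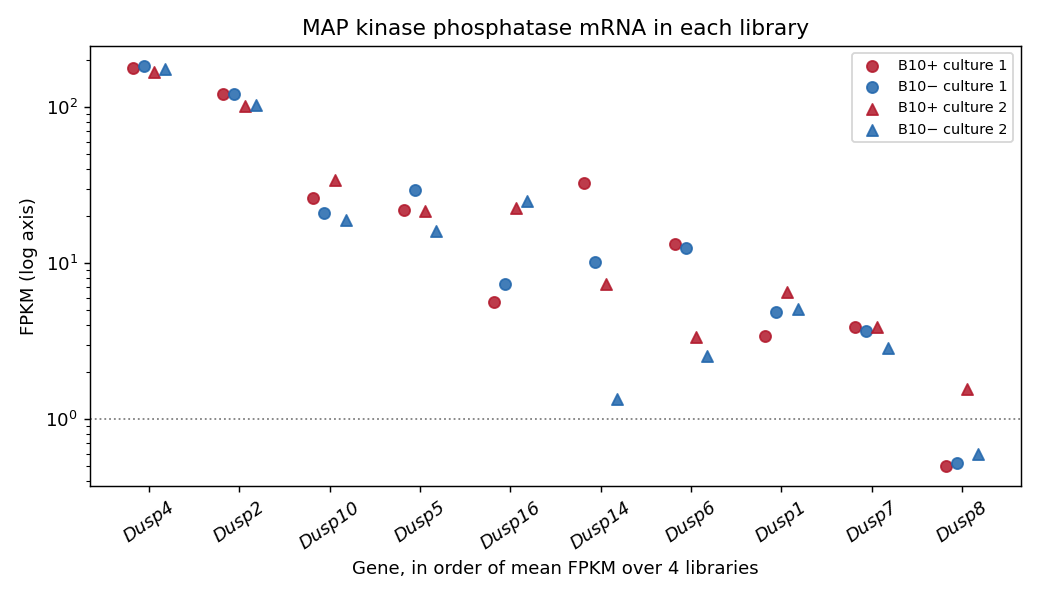
FPKM of the 10 members on a log axis, with 1 point for each library (red B10+, blue B10−, circles culture 1, triangles culture 2) and a dotted line at 1 FPKM. Dusp4 and Dusp2 lie above 100 FPKM with the 4 points close together, while the points of Dusp14 run from 1.34 to 32.8 FPKM.

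Between the subsets, Dusp14 was the only one of 9 tested members to be called, and only in the fit that includes the culture. Differences are B10+ minus B10− on the log2(FPKM + 1) scale, which understates changes of genes with low values, and testing required 1 FPKM in at least 2 libraries, which 10367 entries and 9 of the 10 members met. Fitted without the culture, limma called 0 of 9 members, against 0.0% of all entries, and an unadjusted p under 0.05 was met by 0 of 9, against 1.14% of all entries. Fitted with a replicate block for the culture, limma called 1 of 9 members, against 0.858% of all entries (0.781% higher and 0.0772% lower in B10+ cells), and 2 of 9, Dusp14 and Dusp10, had an unadjusted p under 0.05, against 15.2%.

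Most members showed small differences. The B10+ library was the higher one in both cultures for 4 of 9 tested members, against 33.4% of all entries, and the lower one for 3, among them Dusp2 with its nearly equal values, against 31.8%. The remaining 2, Dusp1 and Dusp5, differed in sign between the cultures, against 34.8% of all entries. The mean difference was under 0.25 in size and not called for 7 of 9, against 60.0%. The median difference was 0.0094 over the 9 tested members and 0.0029 over all tested entries.

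Dusp14 was higher in B10+ cells of each culture. Dusp14 (MKP-6, a small atypical member without the docking domain of the others, known in mouse T cells to dephosphorylate Tab1, a partner of the kinase Tak1; chromosome 11, 83861547 to 83881859) measured 32.8 FPKM in B10+ versus 10.2 FPKM in B10− cells of culture 1, and 7.34 versus 1.34 FPKM in culture 2. The B10+ library was 3.22 and 5.46 times its partner. B10+ cells of culture 2 still lay below B10− cells of culture 1, so the subsets overlap when the cultures are pooled. The mean log2 difference was 1.71 with an SD of 0.17 between the 2 cultures, and the limma adjusted p was 1.0 when the culture was left out and 0.0474 when it entered as a replicate block (95% interval 1.24 to 2.18). The blocked limma call was lost when no low values were filtered (adjusted p = 0.0749) and with a pseudocount of 0.1 (0.0791). By limma adjusted p it stood under quantile normalization (0.0167) and with libraries scaled to one median (0.00812), the last a setting chosen after seeing the data. The lowest of the 4 values, in B10− cells of culture 2, rested on about 47 to 68 fragments, depending on which annotated transcript length is taken.

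Entries with a profile like that of Dusp14 were sought by the Euclidean distance between centred log2 values of the 4 libraries, among 7234 entries with a mean of at least 5 FPKM. The nearest were Hist2h4, Glipr1 and Cdc25c, at distances of 0.133, 0.172 and 0.201. Hist2h4, a replication-dependent histone H4 gene whose near-identical copies can share reads, measured 192 versus 58.9 FPKM in culture 1 and 49.4 versus 12.9 FPKM in culture 2. Glipr1 measured 211 versus 79.6 FPKM and 53.2 versus 13.5 FPKM. Cdc25c, a phosphatase that drives entry into mitosis, measured 12.6 versus 4.39 FPKM and 2.94 versus 0.0795 FPKM, the last of these a very low value.

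In both cultures B10+ cells had the higher value for 11 of 12 T cell markers, mostly at low levels, and 1, Cd8a, had opposite signs. Of all tested entries 33.4% were higher in both cultures, but most of these markers lay below the filter, where no such share was computed. In culture 1, 19.4% of entries were listed at 0 in the B10+ library and 34.5% in the B10− library. In culture 2 these were 36.2% and 37.3%. The part of this difference in low values in the marker count was not tested. Only 2 of the 12, Cd2 and Lat, passed the filter and were tested, and limma called 0 of them with or without the block (smallest adjusted p = 0.0514, Cd2). The 12 markers summed to 28.3 FPKM in B10+ versus 8.65 FPKM in B10− cells of culture 1, and to 18.7 versus 3.64 FPKM in culture 2, while 7 of them stayed under 1 FPKM in all libraries. Most of that sum was Cd2, an adhesion receptor that mouse B cells also express, with 20.3 versus 5.24 FPKM and 10.3 versus 2.93 FPKM.

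The T cell genes Cd3e, Cd3g and Cd8b1 measured 0.0257, 1.14 and 0.863 FPKM in B10+ cells of culture 1 and 0.298, 0.245 and 3.23 FPKM in those of culture 2, with both B10− libraries listed at 0. Zap70, a kinase of the T cell receptor, measured 0.912 FPKM versus a listed 0 in culture 1 and 1.67 versus 0.0140 FPKM in culture 2. Of these 12 markers 0 were listed at 0 in all 4 libraries. Of 9 macrophage and monocyte markers 2 were higher in both cultures, among them Emr1, which measured 2.58 versus 0.836 FPKM and 2.55 versus 0.220 FPKM, and their sum was 9.38 versus 8.90 FPKM and 7.96 versus 5.29 FPKM. Of 8 B cell markers 4 were higher and 2 lower in both cultures, and Cd79a and Cd79b, parts of the B cell receptor, measured 25.9 versus 20.8 FPKM and 116 versus 105 FPKM in culture 1 and 31.4 versus 8.04 FPKM and 11.5 versus 2.34 FPKM in culture 2. The part of these markers in the Dusp14 difference was not tested.

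Dusp10 was also higher in B10+ cells of both cultures, and did not pass the adjusted threshold. Dusp10 (MKP-5, which prefers Jnk and p38 over Erk; chromosome 1, 185858340 to 185899515) measured 26.0 FPKM in B10+ versus 21.0 FPKM in B10− cells of culture 1, and 33.9 versus 18.9 FPKM in culture 2. Both B10+ values lay above both B10− values. The mean log2 difference was 0.55 with an SD of 0.36 between the 2 cultures, and with the block limma gave an unadjusted p of 0.0381 and an adjusted p of 0.302. Subsets that did not overlap were found for 2 of 9 tested members, Dusp10 and Dusp7, against 14.1% of all entries; in both the B10+ libraries were above, against 6.6%, and in 0 members the B10− libraries were, against 7.47%.

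**Figure D2:**
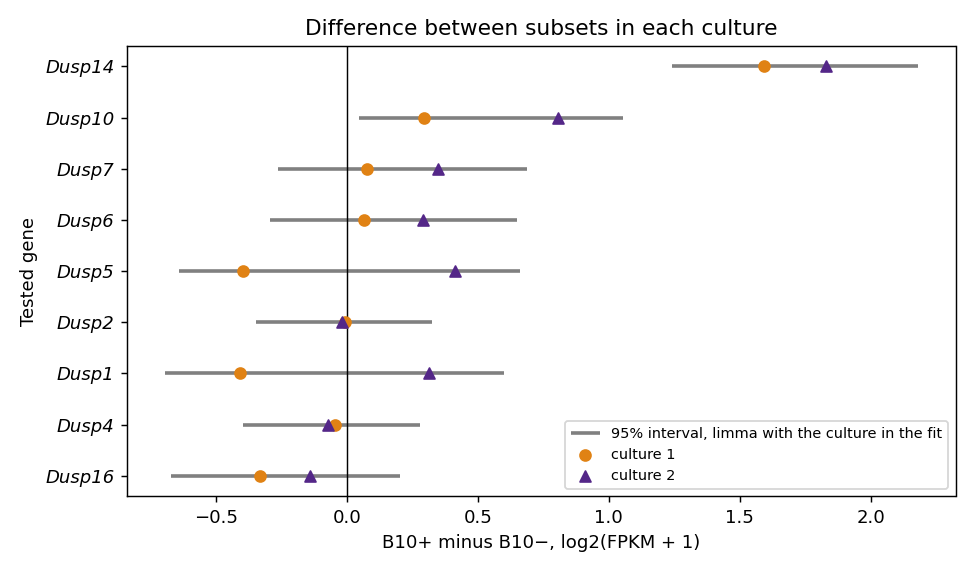
Difference between B10+ and B10− cells on the log2(FPKM + 1) scale for the 9 tested members, with culture 1 as circles, culture 2 as triangles and the 95% interval of limma with the culture in the fit as a grey line. Dusp14 lies at 1.59 and 1.83, Dusp10 at 0.29 and 0.81, and the intervals of the other 7 members include 0.

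The promoters of Dusp14 and Dusp10 are shown because these members had the largest differences between subsets. Sequences are 300 bases from RefSeq (GRCm38.p6), 250 before and 50 after the start site used there, written 5′ to 3′ on the gene's strand, and that table held 9 of the 10 members. Capitals mark matches, on either strand, to the core of a cAMP response element (TGACG), an Sp1 site (GGGCGG), an AP-1 site (TGANTCA), a CArG box or an NF-kB site, and adjoining or overlapping matches run together. Which start sites these cells use was not measured.
Dusp14 (chr11:84068308-84068607, minus strand): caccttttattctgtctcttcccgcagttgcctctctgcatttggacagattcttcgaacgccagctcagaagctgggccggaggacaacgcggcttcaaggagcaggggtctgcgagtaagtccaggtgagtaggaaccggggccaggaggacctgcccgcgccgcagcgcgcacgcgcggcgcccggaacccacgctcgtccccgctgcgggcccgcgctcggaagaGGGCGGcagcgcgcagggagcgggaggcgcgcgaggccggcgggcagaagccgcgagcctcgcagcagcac
Dusp10 (chr1:184034131-184034430, plus strand): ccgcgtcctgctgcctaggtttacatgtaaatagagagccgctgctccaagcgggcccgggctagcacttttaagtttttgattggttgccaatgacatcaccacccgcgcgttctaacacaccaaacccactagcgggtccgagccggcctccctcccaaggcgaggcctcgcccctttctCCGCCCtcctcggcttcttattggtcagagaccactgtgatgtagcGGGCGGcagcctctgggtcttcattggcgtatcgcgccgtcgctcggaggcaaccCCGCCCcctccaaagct
Dusp14 had 1 Sp1 match, 21 bases before the start site, Dusp10 had 3, and neither had a match to the other 4 motifs.

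Among the inducible nuclear phosphatases, Dusp4 and Dusp2 had nearly equal values in the subsets of each culture. Their mean log2 differences were -0.059 and -0.012, with SDs of 0.019 and 0.0080 between the 2 cultures and 95% intervals of -0.40 to 0.28 and -0.35 to 0.32 with the block. Over all 4 libraries, 0.723% of tested entries had a smaller log2 range than Dusp4 and 4.92% a smaller one than Dusp2. The entries with the profile nearest to that of Dusp4 were Slc35c2, Polrmt and Ccny, at distances of 0.0145, 0.0236 and 0.0240.

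The other nuclear members, Dusp1 and Dusp5, differed between subsets in opposite directions in the 2 cultures. Dusp1 (MKP-1, an immediate early gene whose product acts on p38, Jnk and Erk and limits cytokine output of LPS-treated macrophages; chromosome 17, 26642536 to 26645417) measured 3.41 FPKM in B10+ versus 4.86 FPKM in B10− cells of culture 1, and 6.57 versus 5.08 FPKM in culture 2. Dusp5 (a phosphatase selective for Erk, which it also anchors in the nucleus; chromosome 19, 53603808 to 53615812) measured 22.0 versus 29.2 FPKM and 21.6 versus 16.0 FPKM. For both genes the B10+ library was the lower one in culture 1 and the higher one in culture 2. Their mean log2 differences of -0.047 and 0.0094 were smaller than the SDs of 0.51 and 0.57 between the 2 cultures, and the sign of Dusp5 turned with libraries scaled to one median (-0.037) or quantile normalized (-0.019). Dusp1 ranked between the sixth and the ninth of the 10 members in every library, 5 h after LPS, PMA and ionomycin were added.

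The promoters of Dusp2 and Dusp5 are shown for these nuclear members, the first as an abundant one and the second because it held CArG boxes, the element bound by serum response factor.
Dusp2 (chr2:127335909-127336208, plus strand): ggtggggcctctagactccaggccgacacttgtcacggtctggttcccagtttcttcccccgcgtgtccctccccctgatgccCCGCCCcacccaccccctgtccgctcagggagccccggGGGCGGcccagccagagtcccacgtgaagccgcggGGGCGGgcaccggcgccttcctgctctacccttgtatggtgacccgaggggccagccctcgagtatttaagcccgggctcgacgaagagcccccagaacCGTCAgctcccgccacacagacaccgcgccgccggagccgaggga
Dusp5 (chr19:53528895-53529194, plus strand): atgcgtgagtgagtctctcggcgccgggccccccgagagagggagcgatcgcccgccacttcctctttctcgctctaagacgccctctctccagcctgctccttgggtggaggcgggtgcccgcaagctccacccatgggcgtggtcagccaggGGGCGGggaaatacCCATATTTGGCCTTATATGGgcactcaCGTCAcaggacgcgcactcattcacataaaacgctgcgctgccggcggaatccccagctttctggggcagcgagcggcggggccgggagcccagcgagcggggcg
In Dusp5, 2 CArG boxes lay side by side, starting 82 and 72 bases before the start site. At least 1 CArG box was held by 1 of the 9 member promoters, against 1.63% of all 32851 promoters of that length. How many of them hold 2 side by side was not counted. The core of a cAMP response element was found in 5 of the 9 member promoters (Dusp1, Dusp2, Dusp5, Dusp8 and Dusp16), against 20.8% of all promoters. Sp1 matches stood in 8 of 9, against 35.7%, and E-box letters (CANNTG, not in capitals) in 7 of 9, against 72.3%. The median GC content was 68.7% in the member promoters and 52.7% in all promoters, and its part in these shares was not tested. AP-1 and NF-kB matches were found in 0 of 9, against 7.81% and 4.51% of all promoters, which says only that these letters are not in the windows.

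Dusp6 and Dusp7, the cytoplasmic phosphatases selective for Erk, were higher in B10+ cells of both cultures by amounts within the error of the fit. Dusp6 (MKP-3, a widely used readout of Erk signalling; chromosome 10, 98725865 to 98730123) measured 13.2 FPKM in B10+ versus 12.6 FPKM in B10− cells of culture 1, and 3.35 versus 2.56 FPKM in culture 2. Dusp7 (chromosome 9, 106270963 to 106278054) measured 3.91 versus 3.66 FPKM and 3.90 versus 2.85 FPKM. The subsets overlapped for Dusp6 and not for Dusp7. The mean log2 differences were 0.18 and 0.21, with SDs of 0.16 and 0.19 between the 2 cultures and limma gave adjusted p of 0.656 and 0.595 in the blocked fit.

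Of the phosphatases that prefer Jnk and p38, Dusp16 had the opposite sign to Dusp10. Dusp16 (MKP-7; chromosome 6, 134665491 to 134742646) measured 5.60 FPKM in B10+ versus 7.30 FPKM in B10− cells of culture 1, and 22.7 versus 25.1 FPKM in culture 2. The B10+ library was the lower one in each culture, and the mean log2 difference was -0.23 with an SD of 0.14 between the 2 cultures (limma adjusted p = 0.532 with the block). Dusp8 (chromosome 7, 149265392 to 149281189) measured 0.502 versus 0.521 FPKM and 1.56 versus 0.596 FPKM, about 60 to 162 fragments. It was not tested, because the B10+ library of culture 2 alone reached 1 FPKM; with no filter its log2 difference was 0.33 (limma adjusted p = 0.599 with the block).

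Between the cultures, 3 members were called. Culture 2 minus culture 1 was tested with limma and a term for the subset. The libraries of a culture are its 2 subsets and not independent cultures, so these p-values describe these 2 cultures and no treatment. Of 9 tested members 1 was called higher and 2 lower in culture 2, or 3 together, against 20.9%, 40.9% and 61.7% of all entries. For 5 of 9 both libraries of culture 1 lay above both of culture 2, against 51.7% of all entries, and for 2 those of culture 2 lay above, against 28.7%, so that 7 of 9 did not overlap, against 80.4%.

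Dusp14 and Dusp6 fell from culture 1 to culture 2 while Dusp16 rose, in both subsets. Dusp6 was 3.93 times as high in culture 1 among B10+ libraries and 4.92 times among B10− libraries, a log2 difference of -1.82 (95% interval -2.29 to -1.35; limma adjusted p = 0.00343). Dusp14 was 4.46 and 7.58 times as high in culture 1 in the same order, a log2 difference of -2.14 (95% interval -2.60 to -1.67; limma adjusted p = 0.00292). Dusp16 was 4.05 and 3.44 times as high in culture 2, a log2 difference of 1.75 (95% interval 1.31 to 2.19; limma adjusted p = 0.00337). These calls held under all 8 alternatives run on this comparison, with limma adjusted p of at most 0.00619.

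The smaller culture differences depended on the scaling. The median over all tested entries was -0.305 on the log2 scale as deposited, -0.09 with libraries scaled to one median and -0.024 after quantile normalization. Under at least 1 of these scalings the sign turned for Dusp2, Dusp4 and Dusp7, which were not called as deposited. Dusp1, at 0.42 as deposited (limma adjusted p = 0.197), was called higher in culture 2 with libraries scaled to one median (limma adjusted p = 0.0438) and after quantile normalization (0.0284).

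**Figure D3:**
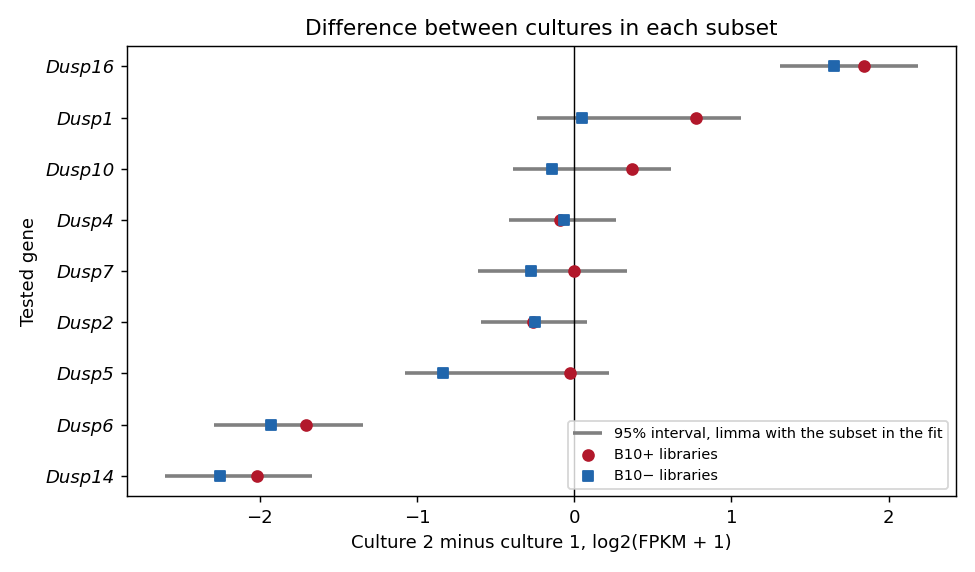
Difference between culture 2 and culture 1 on the log2(FPKM + 1) scale for the 9 tested members, with the B10+ libraries as red circles, the B10− libraries as blue squares and the 95% interval of limma with the subset in the fit as a grey line. Dusp16 lies on the right at 1.75 and Dusp6 and Dusp14 on the left at -1.82 and -2.14, with both subsets on the same side of 0.

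The promoters of Dusp6 and Dusp16 are shown because these genes differed between the cultures in opposite directions.
Dusp6 (chr10:99262981-99263280, plus strand): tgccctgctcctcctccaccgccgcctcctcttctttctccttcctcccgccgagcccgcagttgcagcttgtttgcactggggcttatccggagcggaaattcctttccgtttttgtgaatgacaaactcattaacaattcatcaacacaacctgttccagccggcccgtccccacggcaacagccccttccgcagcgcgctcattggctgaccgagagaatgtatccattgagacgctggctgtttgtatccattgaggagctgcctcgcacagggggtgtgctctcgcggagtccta
Dusp16 (chr6:134792579-134792878, minus strand): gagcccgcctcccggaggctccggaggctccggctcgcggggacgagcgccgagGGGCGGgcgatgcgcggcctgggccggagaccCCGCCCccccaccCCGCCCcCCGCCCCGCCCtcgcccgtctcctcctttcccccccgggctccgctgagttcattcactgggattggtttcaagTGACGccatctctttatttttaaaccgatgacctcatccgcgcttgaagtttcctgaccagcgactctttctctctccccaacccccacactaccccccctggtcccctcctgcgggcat
The Dusp16 window had 5 Sp1 matches and 1 cAMP response element core, 70 bases before the start site, while the Dusp6 window had no match to any of the motifs in capitals.

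Around the phosphatases, 81 genes of 8 lists on the Ras and MAP kinase pathway were tested between the subsets. With the block limma called 0 of 81, against 0.858% of all entries, and an unadjusted p under 0.05 was met by 12 (14.8%, against 15.2% of all entries), 7 of them higher and 5 lower in B10+ cells, against 10.5% and 4.66% of all entries. Without the block 0 of 81 were called and 0 had an unadjusted p under 0.05. The B10+ library was the higher one in both cultures for 26 of the 81 genes and the lower one for 27, against 33.4% and 31.8% of all entries. The same shares of all entries stand beside the counts of each list below, which are small. The median difference over the 81 genes was 0.026 on the log2 scale.

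Of the MAP kinases, atypical ones such as Mapk6 included, 10 were tested, of which in both cultures 3 were higher and 4 lower in B10+ cells (median log2 difference -0.031). Mapk6 (Erk3) and Mapk7 (Erk5) had log2 differences of -0.36 and -0.35, with SDs of 0.27 and 0.11 between the 2 cultures.

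Of 10 tested kinases that MAP kinases activate, 6 were higher and 2 lower in each culture (median log2 difference 0.13). Mapkapk2 (Mk2, the p38-activated kinase that stabilizes cytokine mRNAs) measured 199 versus 116 FPKM in culture 1 and 148 versus 48.2 FPKM in culture 2, a mean log2 difference of 1.19 with an SD of 0.58 (limma adjusted p = 0.145 with the block). Its locus (chromosome 1, 132950281 to 132994120) lies 28733 bases from that of Il10, the gene of the sort, with 0 other entries of the table between them. Rps6ka2 (Rsk3) measured 3.66 versus 1.74 FPKM and 14.7 versus 3.10 FPKM, and Rps6ka3 (Rsk2), like it activated by Erk, 20.8 versus 14.9 FPKM and 40.6 versus 33.1 FPKM. Neither passed the adjusted threshold.

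Upstream, 5 of 9 tested Ras proteins and exchange factors were higher and 1 lower in each culture (median log2 difference 0.22). Hras1 measured 23.8 versus 15.3 FPKM and 12.2 versus 8.45 FPKM, and Rras 1.83 versus 0.916 FPKM and 2.04 versus 0.754 FPKM. Rasgrp3, an exchange factor used downstream of the B cell receptor, was the lower one, with 4.99 versus 6.45 FPKM and 3.34 versus 5.83 FPKM. Of 19 tested MAP kinase kinase kinases and Tak1 partners 6 were higher and 9 lower (median 0.0023), and of 6 MAP kinase kinases 2 were higher and 1 lower (median 0.034). Map3k8 (Tpl2, which links Toll-like receptors to Erk), Map3k9 and Map3k5 (Ask1) had log2 differences of -0.54, -0.63 and 0.53, with SDs of 0.45, 0.032 and 0.53 between the 2 cultures. Map2k2 (Mek2, an activator of Erk) and Map2k4 and Map2k7 (activators of Jnk) had log2 differences of 0.12, 0.26 and -0.14.

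Of 11 tested genes transcribed in response to Erk, in both cultures 2 were higher and 5 lower in B10+ cells (median log2 difference -0.15). Myc, a transcription factor of growth, measured 28.6 versus 56.6 FPKM in culture 1 and 249 versus 449 FPKM in culture 2, a mean log2 difference of -0.90 with an SD of 0.081 (limma adjusted p = 0.0813 with the block). The transcription factor genes Egr2 and Fosb measured 71.3 versus 118 FPKM and 137 versus 169 FPKM, and 1.303 versus 4.25 FPKM and 1.75 versus 3.83 FPKM. Fosb was called only with the block and libraries scaled to one median together (limma adjusted p = 0.0423), a setting chosen after seeing the data. Beside them, Dusp4, Dusp5 and Dusp6, phosphatase genes known to be induced by Erk, had log2 differences of -0.059, 0.0094 and 0.18.

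Of 9 tested other negative regulators of Ras and MAP kinase signalling, 1 was higher and 4 lower in each culture (median log2 difference -0.062). The higher one was Ptpn7 (a tyrosine phosphatase of blood cells that inactivates Erk and p38), which measured 45.3 versus 31.4 FPKM and 14.4 versus 7.96 FPKM, a mean log2 difference of 0.65 with an SD of 0.19 (limma adjusted p = 0.207 with the block). Spred1, an inhibitor of Ras signalling, and Rasa2, which switches Ras off, had log2 differences of -0.42 and -0.26, with SDs of 0.15 and 0.24. Of 16 other dual-specificity phosphatase genes 7 were tested, and 1 was higher and 1 lower in both cultures (median -0.0039). Dusp19, the higher one, measured 4.71 versus 2.76 FPKM and 1.13 versus 0.369 FPKM. Dusp22 measured 37.9 versus 14.9 FPKM and 48.6 versus 50.5 FPKM, and Dusp3 3.43 versus 6.60 FPKM and 4.27 versus 3.89 FPKM, both with opposite signs in the 2 cultures.

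**Figure D4:**
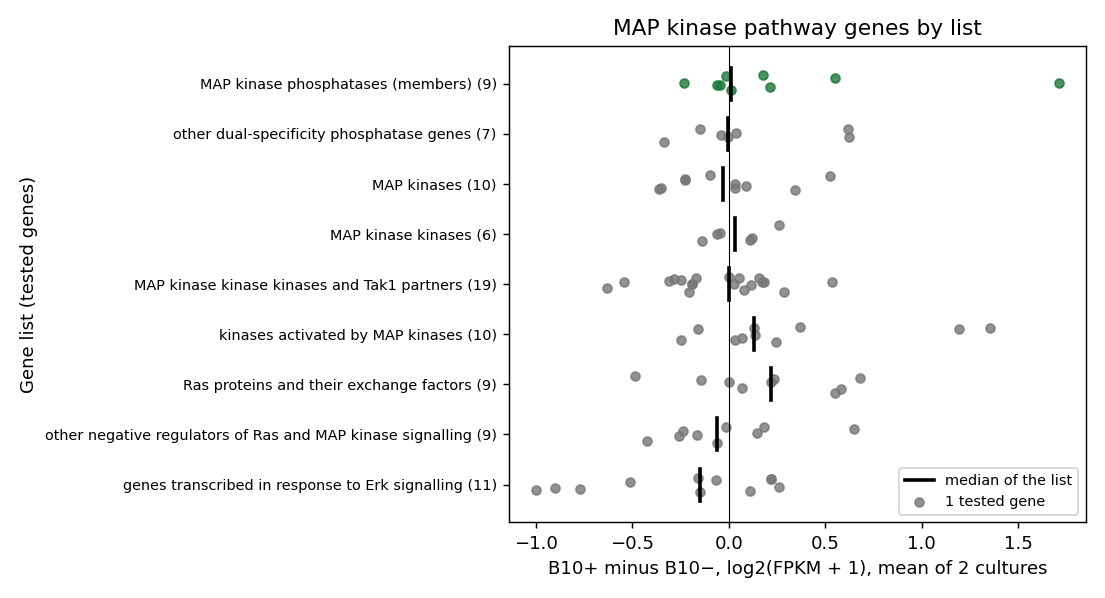
Mean difference between B10+ and B10− cells over 2 cultures on the log2(FPKM + 1) scale for each tested gene (points, spread vertically at random within a list) of the members in green and of 8 pathway lists in grey, with the median of each list as a black bar. All medians lie between -0.15 and 0.22, and Dusp14, at 1.71, is the rightmost point.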

How the data were processed

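Per the labels, the authors deposited FPKM for 4 libraries in 1 table. TopHat 1.3.2, Cufflinks 2.1.1, bcl2fastq 1.8.4 and DESeq, and the build mm9, appear in the submitters' processing notes without role or order; settings and strand handling are not given there. Very abundant RNAs can lower the FPKM of all other genes of a library. Locus starts, which count from 0 in the table, are printed with 1 added.

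Log2(FPKM + 1) values were tested with limma-trend (limma 3.58.1, R 4.3.3; two-sided), and p-values were adjusted by Benjamini-Hochberg over all 10367 entries that reached 1 FPKM in at least 2 libraries (threshold 0.05). The fitting code was tested on simulated data. The first fit has no culture term. The labels pair the libraries by culture, and deviations from group means correlated at 0.865 within a culture, so the fit with a replicate block is printed too. It leaves 1 residual degree of freedom, so its errors rest largely on the spread over all genes.

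Fragments were estimated from the steps of low FPKM values and GRCm38 transcript lengths and cover counting error only. Members and lists were chosen with earlier results of these data known. Named genes are the members, the 3 genes of each list with the smallest blocked p, the 3 entries most like Dusp4 and Dusp14 in profile (predicted and small RNA genes left out) and sort genes; some of these are not reported here. Alternatives were pseudocounts, filters, scalings, no intensity trend, summed loci, the block and leaving out each library.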

Additional observations from a re-analysis of the deposited data

How the results depend on the processing

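Without the culture in the fit limma called 0 entries in either direction, and with the replicate block it called 81 higher and 8 lower, among them 1 member, Dusp14. With the replicate block these counts were 40 and 5 when low values were not filtered and 53 and 7 with a pseudocount of 0.1, both without a member. They were 167 and 23 after quantile normalization, and 274 and 38 with libraries scaled to one median (chosen after seeing the data), each with 1 member, Dusp14. Without the block, 1 entry was called lower with a pseudocount of 0.1 and 1 with libraries scaled to one median. With a library left out, where the lone library of a subset is assumed to vary like the other subset, 1 to 130 entries were called higher and 3 to 14 lower, and 0 members.

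Leaving out a library lets the difference between cultures into the comparison by construction, and the sign then turned for 5 of 9 members and 11 of 24 named pathway genes. The log2 differences ranged from -0.44 to 0.34 for Dusp1, -0.14 to 0.12 for Dusp2, -0.41 to 0.43 for Dusp5, -0.79 to 1.14 for Dusp6 and -1.16 to 0.69 for Dusp16. For pathway genes they ranged from -0.11 to 1.35 for Dusp19, -0.23 to 1.47 for Dusp22, -1.55 to 0.83 for Mapk6, -0.31 to 0.55 for Map2k2, -0.17 to 0.69 for Map2k4, -0.54 to 0.26 for Map2k7, -1.11 to 0.029 for Map3k8, -0.18 to 0.92 for Rps6ka3, -0.91 to 0.40 for Rasa2, -0.28 to 1.58 for Ptpn7 and -2.44 to 0.64 for Myc. Of the pathway genes that kept their sign, Mapkapk2 ranged from 0.57 to 1.81, Rps6ka2 from 0.48 to 2.23, Hras1 from 0.096 to 1.0, Map3k5 from 0.076 to 0.99 and Egr2 from -0.98 to -0.043. Dusp14 kept its direction, from 0.58 to 2.84, and Dusp10 too, from 0.37 to 0.74. Dusp5 turned to -0.019 after quantile normalization and to -0.037 with libraries scaled to one median, with or without the replicate block. Between cultures, Dusp2 turned to 0.13 after quantile normalization, Dusp4 to 0.38 and Dusp7 to 0.22. With libraries scaled to one median Dusp4 turned to 0.17 and Dusp7 to 0.054. That scaling multiplies all values of a library by the same factor, and the median culture difference over all tested entries moved from -0.305 to -0.09. Why the libraries differ in scale was not tested. On the values as deposited, the block changed no other call among members and pathway genes than that of Dusp14, and with libraries scaled to one median it also brought Fosb past the threshold. With 2 cultures, a missed threshold does not show equal levels.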
